A study of Fragaria x ananassa with 4 samples.

Results

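The 5 array entries described here belong to the flavonoid branch of the phenylpropanoid pathway in strawberry receptacle. They are gene26826 (chalcone synthase, CHS), gene14611 and FaFHT (both flavanone 3-hydroxylase, F3H), gene24665 (anthocyanidin reductase, ANR) and gene12513 (flavonoid 3'-hydroxylase, F3'H). They were selected by name out of 35116 genes on the array, and they were chosen with their red against green values known, so those values are given as a description and carry no test. All 5 passed the filter on dim probes that left 24975 genes to be tested, gene12513 only through its green arrays. The study compared receptacle, the fleshy tissue that carries the achenes, between ripe red fruits (mature, 2 samples) and small green fruits (immature, 2 samples) of F. × ananassa, the cultivated strawberry. Neither group carried a transgene or received a treatment. According to the sample descriptions, the plants were raised in a growth chamber and then kept in a greenhouse, whereas the methods describe plants of the cultivar Camarosa in the field. The methods describe independent pools of fruits for each stage, but not which pool each array took, and the p-values given below measure only the spread between the arrays of a stage.

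Flavonoids are built from phenylalanine. Chalcone synthase makes the first C15 skeleton, chalcone isomerase closes its ring, and flavanone 3-hydroxylase and flavonoid 3'-hydroxylase add hydroxyl groups, flavonoid 3'-hydroxylase on the B ring of the molecule. The resulting dihydroflavonols can become flavonols through flavonol synthase, or pass through dihydroflavonol reductase to leucoanthocyanidins. From there, anthocyanidin synthase and a glucosyltransferase lead to anthocyanins, the pigments of the red fruit, while leucoanthocyanidin reductase and anthocyanidin reductase lead to the monomers of proanthocyanidins (condensed tannins), which are known to be abundant in unripe strawberries.

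Of the sequences held here, those that belong to a member are the primers that the study designed to measure gene14611 by quantitative PCR. They are shown to identify this F3H transcript, and they are not the probe on the array.
14611qRT-UP: gcgttttccagattgttgat
14611qRT-LOW: taaatggctggaaacgatga

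Each sample was hybridised to 1 array with a single dye, and a spot's brightness is proportional to the labelled RNA bound by its probe. Values are log2 signals relative to the 75th percentile of the same array. This percentile was 671 in red 1, 509 in red 2, 390 in green 1 and 347 in green 2. Red 1 was on a slide of its own, and red 2 shared its slide with both green samples. Of the stage markers that the study names, the ripening regulator FaMYB10 (gene31413) was 198-fold higher in red receptacle, and a xyloglucan endotransglucosylase/hydrolase (gene01986), a cell wall enzyme, was 2326-fold lower. Achenes were removed before RNA extraction. Of 25 tested genes for seed storage, oil body and late embryogenesis abundant proteins, 20 were higher and 3 were lower in red receptacle, and 2 passed the background flag less often in green: gene16469 on no green array and gene20306 on 1 of 2. Their summed relative signal was 74.3 and 77.5 in red and 45 and 47.4 in green. The seed storage and oil body genes alone summed to 18.2 and 19 in red and 8.93 and 9.91 in green. For the late embryogenesis abundant genes the sums were 56.1 and 58.5 in red and 36 and 37.5 in green. These sums, and the total, rest largely on gene19010, with a relative log2 signal of 5.35 and 5.43 in red against 4.78 and 4.85 in green. The median log2 difference was 0.95 for the seed storage and oil body genes and 1.29 for the late embryogenesis abundant genes. The part of achene RNA in the results below was not tested. In bulk tissue, fewer cells of a type and less RNA per cell cannot be told apart.

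The member entries for CHS and F3H were higher in red receptacle, and those for ANR and F3'H were lower, by far larger factors. Other entries described as F3'H went both ways, as given below. On the array level, gene26826 was 1.49-fold and the F3H entries 2.29-fold and 2.45-fold higher in red, while gene24665 was 128-fold lower. With the scanner's background subtraction, gene12513 was at least 169-fold lower. This is a log2 bound of -7.40, and with the normexp background correction the bound was -3.84. For each of the 5 members the red and green arrays did not overlap. Across all genes tested, both red arrays lay above both green arrays in 45.1% of the genes and below them in 42%. With the limma test, 37.8% of all genes were higher and 35.1% lower in red at an adjusted p under 0.05. Since the members were chosen on this contrast, nothing is read from their number against these shares.

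**Figure D1:**
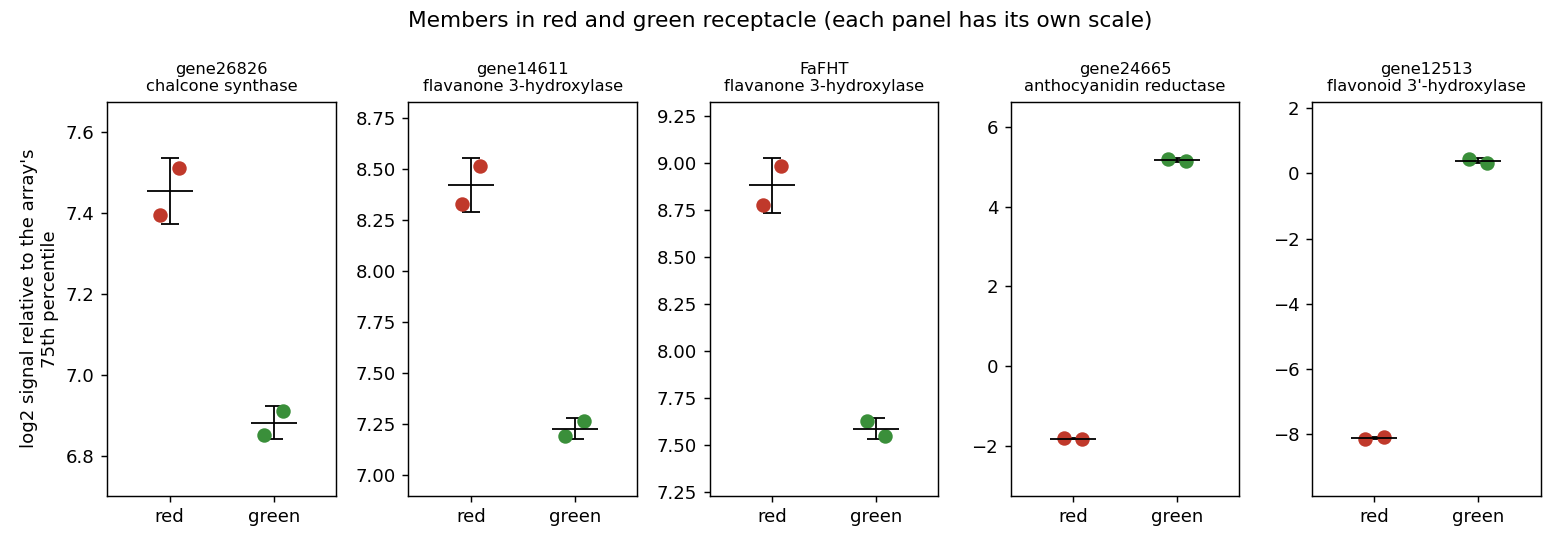
Log2 signal relative to the 75th percentile of the array (vertical axis, own scale in each panel) of the 5 members on the 2 red and 2 green arrays. Points are arrays and lines with bars are the mean and SD over 2 arrays. The red arrays lie above the green arrays for gene26826, gene14611 and FaFHT and below them for gene24665 and gene12513.

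Chalcone synthase is the entry enzyme of the branch. The relative log2 signal of gene26826 was 7.40 and 7.51 in red, against 6.85 and 6.91 in green. The means were 7.45 ± 0.08 in red and 6.88 ± 0.04 in green (SD, n = 2 each), a log2 difference of 0.57. Both red arrays were higher than both green ones, with a gap of 0.48 between the nearest arrays. The 2 spots of its probe differed by 0.05 to 0.08 on the log2 scale within an array. On red 2, 1 of these spots was marked for an uneven local background, and without it the difference was 0.58. In all, 7365 of the tested genes had a higher red minus green difference than gene26826, so its difference was modest for these arrays.

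The neighbour in number of gene26826 is gene26825, which the study names as a chalcone synthase and which the array leaves without a description. Its relative log2 signal was 7.50 and 7.62 in red, against 6.96 and 6.98 in green. It was higher in red by a log2 difference of 0.59 (SE 0.08, adjusted p = 0.004, limma with Benjamini-Hochberg adjustment). Whether the probes of gene26826 and gene26825 each bind the transcript of the other gene could not be examined, since probe sequences were not used here, and the values of the pair may not be independent.

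**Figure D2:**
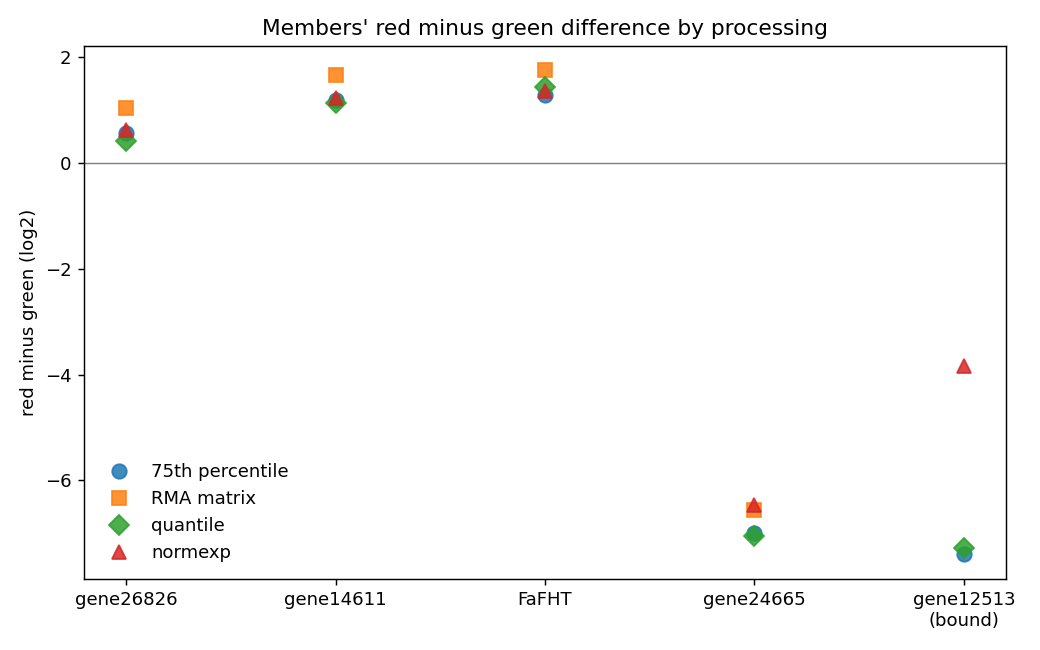
Red minus green log2 difference (vertical axis) of the 5 members under 4 ways of processing the arrays (symbols), with bounds for gene12513, for which the RMA matrix gives none. The direction is the same wherever a value is shown, and the gene12513 bound is -7.40, -7.28 or -3.84.

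Flavanone 3-hydroxylase was measured by the gene model gene14611, on 1 spot per array, and by FaFHT, a strawberry gene entered under its own name, on 2 spots. The relative log2 signal of gene14611 was 8.33 and 8.52 in red, against 7.19 and 7.26 in green, a difference of 1.19. That of FaFHT was 8.78 and 8.98 in red, against 7.63 and 7.55 in green, a difference of 1.29. In both entries the red arrays were higher than the green arrays, and the SD was 0.13 to 0.14 in red and 0.05 to 0.06 in green (n = 2 each). Whether both probes detect 1 gene is not stated. On red 2 the single spot of gene14611 was marked by the scanner software for an uneven local background, and without it the difference was 1.10.

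Anthocyanidin reductase, the last enzyme before the epicatechin units of proanthocyanidins, had the opposite pattern. The relative log2 signal of gene24665 was -1.81 and -1.84 in red, against 5.20 and 5.14 in green. The means were -1.83 ± 0.02 in red and 5.17 ± 0.05 in green (SD, n = 2 each). The difference of -7.00 is 128-fold, and 130 of the 24975 tested genes had a lower one. Its spots were well above background on all 4 arrays. The signals behind these values were 191 and 143 in red and 14398 and 12242 in green.

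The named strawberry gene FaANR1, which is no member, had a relative log2 signal of 0.25 and 0.17 in red, against 7.05 and 7.08 in green. It was lower in red, with a log2 difference of -6.86 (SE 0.07, adjusted p = 3.1e-05, limma). Whether FaANR1 and gene24665 detect the same transcript was not examined, so their values may not be independent. FaANR2, also for anthocyanidin reductase by its name, did not pass the filter on dim probes.

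Flavonoid 3'-hydroxylase is a cytochrome P450 that sets the hydroxylation of the B ring. On the red arrays neither spot of gene12513 was well above background, and its processed signal was 2.38 and 1.89, against 531 and 437 on the green arrays. The relative log2 signal was -8.14 and -8.07 in red, against 0.44 and 0.33 in green. The red value has only a bound: the green mean was at least 169-fold above the lowest value that the scanner software still separated from background on the red arrays. The level in red receptacle was not detectable at this brightness, which differs from absent. One of the 2 red spots on each red array was marked for an uneven local background. Leaving these out could not change the bound, since every red spot lay below the lowest value used for it.

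The size of this bound depends on how the background was removed. It was -7.40 on the log2 scale with the scanner's own subtraction and -3.84 with the normexp correction and its offset. In the authors' own matrix the values of gene12513 were 0.197 and 0.245 in red, against 518 and 471 in green. The matrix holds no background flag, so no bound was taken from it. The lowest flagged value behind the bound is also no sharp limit. On the green arrays, gene16469 had -5.85 on both without being flagged well above background. The lowest flagged values there were -6.74 and -6.42.

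The description of gene12513 names many genes on the array. Together with it, 26 genes carry F3'H, or the putative label flavonoid 3-hydroxylase, as their best-scored or curated description. Of these, 21 passed the filter. The putative label is that of gene05304, gene05317, gene12515, gene31614 and gene35027. Of the 20 tested genes that are not members, 7 were higher and 9 were lower in red. The test was not passed by 4, among them gene05317, gene12515 and gene31614, and the median log2 difference was -0.25. The largest increases were those of gene06906, with 2.30 and 2.32 in red against -4.22 and -5.02 in green, and of gene07324, with 2.78 and 2.73 in red against -2.96 and -2.98 in green (relative log2 signal, adjusted p = 2e-04 and 3.1e-05). In green, gene06906 was well above background on 1 of the 2 arrays. The gene model next in number, gene12514, passed the filter through its green arrays alone and was at least 17.0-fold lower in red (adjusted p = 0.00018). With the normexp correction its log2 difference was -1.34. This bound and those of other dim genes below hold for the scanner's background subtraction only. The adjusted p printed beside such a bound belongs to the fitted difference, not to the bound. That difference uses values not well above background in the dim stage. Since these genes passed the filter through the bright stage alone, nothing further is read from these p-values. The model after gene12514, gene12515, differed by -0.05 and did not pass the test (adjusted p = 0.74). The sign of its difference turns with the RMA matrix and with quantile normalization. gene12514 and gene12515 were chosen after their values were seen, for their place beside gene12513.

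The array carries 71 further genes of the pathway, assigned by description or name, of which 60 were tested. Of these, 23 were higher and 23 were lower in red receptacle, 38.3% in each direction, and 14 did not pass the test. The median log2 difference was 0.03, against 0.04 over all genes tested. Without a cut on the size of the difference, these shares lie near those over all genes. At least 2-fold, 18 of the 60 were higher and 21 lower, against 4353 and 5381 of all 24975 genes tested. With this cut both shares of the list were larger than those over all genes, which was not tested. Named strawberry entries and gene models are counted apart, and whether some of them detect the same transcript was not examined. The list leaves out gene26825, which has no description on the array. Of the genes past the test, gene10754, gene30773 and gene04355 changed sign with another way of processing. For gene04355 the log2 difference was -0.39, and 0.07 in the RMA matrix.

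**Figure D3:**
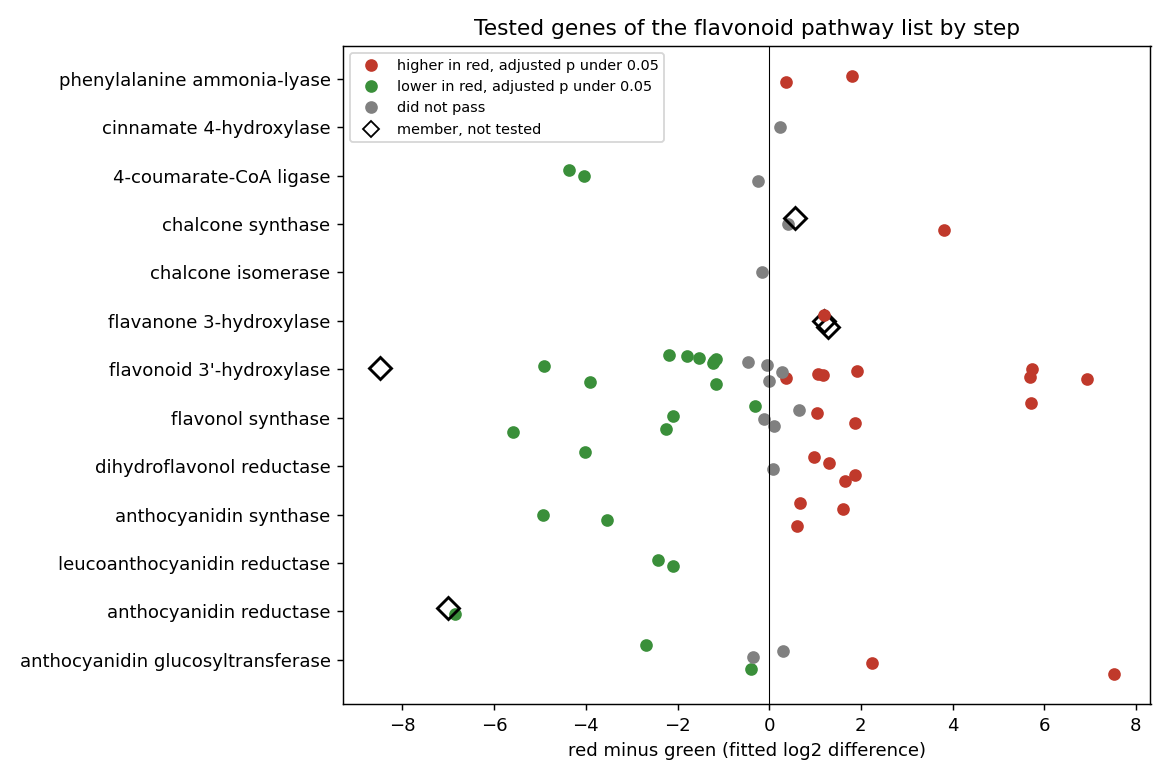
Fitted red minus green log2 difference (horizontal axis) of the tested genes of the pathway list, by step from top to bottom. Filled circles are coloured by the call of the limma test and open diamonds are the 5 members, which were not tested; the diamond of gene12513 is the fitted value and not its bound. Both entries for leucoanthocyanidin reductase and both for anthocyanidin reductase lie left of 0.

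Before chalcone synthase, phenylalanine ammonia-lyase opens the phenylpropanoid pathway, and both of its genes were higher in red. gene23261 was higher by 1.81 and gene09753 by 0.36 on the log2 scale (adjusted p = 0.00015 and 0.0096). Cinnamate 4-hydroxylase (gene28093) differed by 0.23 (adjusted p = 0.13) and did not pass, and its difference is -0.03 with quantile normalization. Among the 4-coumarate-CoA ligases, which activate coumarate for chalcone synthase, gene15877 and gene12577 were lower in red, with log2 differences of -4.36 and -4.04 (adjusted p = 0.0001 and 4.3e-05). The remaining ligase, gene05255, differed by -0.24 (adjusted p = 0.17), and by 0.22 in the RMA matrix.

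Of the other chalcone synthases on the list, gene10965 passed the filter through its red arrays alone. It was at least 6.37-fold higher in red (adjusted p = 0.00028, limma), with a log2 difference of 0.19 under the normexp correction. gene10966 had 2.20 and 2.31 in red against 1.70 and 2.01 in green and did not pass the test (adjusted p = 0.058). Chalcone isomerase (gene23367), with 5.44 and 5.41 in red against 5.61 and 5.58 in green, differed by -0.16 and did not pass (adjusted p = 0.084), and by 0.30 in the RMA matrix. Another entry for flavanone 3-hydroxylase, gene22727, was higher in red by 1.20 (adjusted p = 0.00069).

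On the branch to flavonols, FaFLS passed the filter through its green arrays alone and was at least 22.3-fold lower in red (adjusted p = 3.2e-05), with a log2 difference of -1.63 under the normexp correction. By contrast, gene30780, whose description joins flavonol synthase and flavanone 3-hydroxylase, was 52.2-fold higher (adjusted p = 3.1e-05). Of the 10 genes for this step, 3 were higher and 4 were lower in red. The sign did not hold for all of these calls. gene10754, higher in red by 1.87, passed the filter through its red arrays alone and had -0.35 with the normexp correction. gene30773, lower in red with -0.30, had 0.16 in the RMA matrix.

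Dihydroflavonol reductase acts before the split towards anthocyanins and proanthocyanidins. Of its 6 tested genes, 4 were higher in red and 1 was lower. FaDFR1C was higher by 1.88 on the log2 scale, with 6.80 and 6.83 in red against 4.95 and 4.93 in green (adjusted p = 0.00012), and gene19406 was lower, with -4.03 (adjusted p = 5.4e-05). Of 5 entries for anthocyanidin synthase, 3 were higher and 2 were lower. The higher ones were the brightest in red: gene32347 (mean 6.82, difference 0.67), FaANS (6.18, 0.61) and gene20980 (4.19, 1.62). The largest differences were those of gene18341, with -4.93 (adjusted p = 0.00024) and a red mean of -6.10, and gene11126, at least 7.50-fold lower (adjusted p = 0.00032). gene11126 passed the filter through its green arrays alone, and its log2 difference was -0.85 under the normexp correction. The glucosyltransferase FaUFGT, which adds the sugar that stabilises the pigment, had 6.25 and 6.27 in red against -1.24 and -1.28 in green, a 183-fold higher level (adjusted p = 3.1e-05). Another gene of this step, gene29614, was lower, with -2.70 (adjusted p = 0.00046).

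On the branch to proanthocyanidins, both genes for leucoanthocyanidin reductase were lower in red, as was FaANR1. gene03877 had 2.11 and 2.09 in red against 4.49 and 4.56 in green, a log2 difference of -2.42 (adjusted p = 8e-05). FaLAR had 2.49 and 2.41 in red against 4.50 and 4.58 in green, a log2 difference of -2.09 (adjusted p = 0.00013).

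The genes most like each member were found by the Euclidean distance between values centred on the gene's own mean, over the 4 arrays. For gene26826 they were gene06570 (heat shock factor protein 7, distance 0.02) and gene19010 (a late embryogenesis abundant protein, 0.03), and 291 genes were within 0.1. For gene14611 they were gene11110 (a histone-lysine methyltransferase, 0.03) and gene22727 (0.03), with 55 genes within 0.1. For FaFHT they were gene24407 (PRLI-interacting factor A, 0.05) and gene02243 (a resistance protein, 0.07), with 19 genes within 0.1. For gene24665 they were gene20960 (a chlorophyll a/b binding protein, 0.05) and gene18816 (described as AER, 0.08), with 9 genes within 0.1. For gene12513 no likeness is given, since its red values were not above background. The pathway list does not hold gene26825. Over this list the nearest were FaANS for gene26826 (0.09), gene15174, a dihydroflavonol reductase, for FaFHT (0.14) and FaANR1 for gene24665 (0.16). With 4 arrays in 2 groups this likeness rests mainly on the size of the red minus green difference.

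How large the differences are depends on the scaling between arrays. In the authors' RMA matrix the median of all tested genes was 0.51 higher in red, against 0.04 with the 75th percentile. There gene26826 was 2.05-fold, gene14611 3.15-fold and FaFHT 3.38-fold higher in red, and gene24665 was 94.1-fold lower. Relative to that median, the log2 differences were 0.52, 1.15, 1.25 and -7.07, against 0.54, 1.16, 1.26 and -7.03 with the 75th percentile. With quantile normalization they were 0.23, 0.94, 1.24 and -7.24 relative to a median of 0.19, and with the normexp correction 0.83, 1.44, 1.58 and -6.26 relative to a median of -0.21. With no scaling at all, gene26826 was 2.36-fold higher in red. Within the slide that held red 2 and both green arrays, the differences were 0.63 for gene26826, 1.29 for gene14611, 1.40 for FaFHT and -7.01 for gene24665, and the bound of gene12513 was -7.38.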

How the data were processed

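Cy3-labelled RNA of 2 red and 2 green receptacle samples was hybridised to 1-colour Agilent arrays, and the scans were read with Agilent Feature Extraction 10.7.3.1. Per the file headers, the deposited intensity of a spot is linear, has its background removed and is not scaled between arrays. A second table deposited by the authors holds linear RMA intensities for these arrays.

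The processed signal was taken as log2 minus the log2 of the 75th percentile of all spots that are not controls. Spots flagged as non-uniform in the spot itself or as outliers were left out (84 to 255 of 61657 per array), while spots flagged for an uneven local background were kept and left out as an alternative, and the spots of a probe and the probes of a gene were averaged. A probe was kept if 2 or more of the 4 arrays showed it well above background, and genes without a value on an array (40) were left out. No spot was saturated. The number of arrays limits the precision. The comparison of genes used limma 3.58.1 (lmFit, eBayes; R 4.3.3) with 2 residual and 1.81 prior degrees of freedom. Its two-sided p-values carry a Benjamini-Hochberg adjustment over all 24975 genes. A gene not well above background on either array of a stage is given a bound: the brighter stage's mean over, per array, the higher of the gene's own value and the lowest value well above background.

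The members, the pathway list and the markers were chosen with earlier results of these data known. A gene was put in a step by its curated or best-scored description, a rule set after the descriptions were seen. Named are the members, the genes of steps with up to 3 tested genes, and the 2 largest differences past the test of other steps. Also named are genes the study names, and the nearest genes, where descriptions without a protein name were passed over. The other anthocyanidin synthase entries, gene10754, gene30773 and gene04355 were added after their values were seen. None of the array's names matched the reference gene table (0 matches), so names are those of the array. Alternatives were the RMA matrix, quantile normalization, normexp correction of the median spot signal (offset 50), other filters and probe summaries, other tests and thresholds, a block for the replicate number or the slide, and fits without 1 sample.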

Additional observations from a re-analysis of the deposited data

How the results depend on the processing

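The direction of every member was the same under each alternative run. With the RMA matrix the log2 differences were 1.03 for gene26826, 1.66 for gene14611, 1.76 for FaFHT and -6.56 for gene24665, and the matrix, which holds no background flag, gave no bound for gene12513. With quantile normalization they were 0.41 for gene26826, 1.43 for FaFHT and -7.05 for gene24665, with a bound of -7.28 for gene12513. With the normexp correction they were -6.47 for gene24665 and -3.84 for gene12513. Requiring all 4 arrays above background left no value for gene12513. Leaving out 1 sample gave 0.51 to 0.63 for gene26826, 1.10 to 1.29 for gene14611, 1.19 to 1.40 for FaFHT, -7.03 to -6.96 for gene24665 and -7.46 to -7.35 for gene12513.

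Of the pathway list, 21 to 24 genes were higher and 21 to 24 lower when 1 sample was left out. Over all genes these counts were 8081 to 8858 and 8014 to 8114. The threshold of the study was a log2 difference above 2 in size and the methods' Student test. There, 7 of the 60 tested genes of the list were higher and 15 lower, against 1612 and 2925 of all 24975 genes. At least 2-fold were 18 higher and 21 lower genes of the list, and 4353 and 5381 over all genes. In both settings the shares of the list were larger than those over all genes, which was not tested. Taking genes with any matching description, chosen after seeing the data, gave 64 higher and 63 lower of 154 tested. The higher genes were 51.9% of all calls, but 68.8% with the RMA matrix and 40% with normexp, where the median of all genes was 0.51 and -0.21 (the cause was not tested). With the replicate block, 24 genes of the list were higher and 23 lower, and 9465 and 8844 over all genes. The labels give the stages the same numbers, and deviations of same-numbered samples correlated by 0.08. This value cannot show whether same-numbered samples shared a harvest or handling. Dim signals limit the bound of gene12513.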

Other observations

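A run of gene models consecutive in number, gene30773 to gene30782, holds 2 genes described as flavonol synthase/flavanone 3-hydroxylase, 4 described as iron/ascorbate-dependent oxidoreductases, and 4 (gene30778, gene30779, gene30781 and gene30782) whose description names no protein. They were chosen after their values were seen. gene30779, one without a protein name, had a relative log2 signal of 6.78 and 6.76 in red against 1.38 and 1.29 in green, and gene30780 had 5.97 and 5.88 in red against 0.25 and 0.18 in green. gene30776, an oxidoreductase by its description, was lower in red, with 3.24 and 3.20 in red against 3.99 and 4.02 in green.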
